A study of Mus musculus with 12 samples.

Results

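The genes described here are the interleukins and interferons of the array, the secreted proteins by which skin and immune cells signal to each other, without the IL-1 and IL-20 ligands apart from the IL-1 receptor antagonist. They were chosen by gene symbol alone, from probe sets matched to a mouse symbol through their RefSeq accession, and none was chosen by its value. The rule took 29 of 1246 probe sets and 28 of 909 named genes. Of these 28, 27 encode secreted proteins and 1, Ifnlr1, encodes a receptor chain that the spelling of its symbol brings in. The rule also allowed for the TNF superfamily, Tnf, Lta, Ltb, Cd40lg, Fasl, Osm, Lif and Tslp, but 0 of the matched probe sets carried one of those symbols, so the set holds no TNF family ligand. The cytokines measured were therefore interleukins, the antagonist Il1rn and interferons.

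Expression was measured on single-colour arrays in mouse samples, to find genes whose level differs early after skin wounding. There were 4 non-wounded samples, 2 samples taken 30 min after wounding and 4 taken 2 h after it, beside single samples at 0 h and 4 h that enter no comparison. The labels name dendritic epidermal T cells as the material, whereas the series' design describes the whole epidermis. The titles begin with B6 in every group, which the labels do not explain further, and no source used here gives a genotype, an age or the number of mice behind a sample. Replicates are not said to come from separate animals, so the p-values speak only of the scatter among these samples, part or all of which may be technical.

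Interleukins and interferons act at low concentration through paired receptor chains, most of which pass their signal to JAK kinases and STAT factors. In skin, IL-6 family ligands, type I and type III interferons and IL-17 ligands act on keratinocytes, while IL-2, IL-7 and IL-15 support T cells, among them the resident T cells of mouse epidermis. Many of these genes are silent at rest and are transcribed within minutes to hours of injury or infection, often through the transcription factors NF-kB, AP-1 and C/EBP.

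Values are RMA values on a log2 scale, where a difference of 1 is a doubling. RMA carries no detection call, and values of different probe sets do not rank their transcripts. In all 4 non-wounded samples 18 of the 29 probe sets lay below the median of the table, against 44.1% of all probe sets. The 5 samples numbered 1 in the titles, 1 in each group, stood apart from the 7 numbered 2 to 4: their SD over all probe sets was 1.55 to 1.85, against 2.19 to 2.30, so dim probe sets read higher in them. Their median over the 29 probe sets was 3.58 to 4.07, against 3.18 to 3.43 in the others. The sample numbered 1 was the highest of its group for 22 of the 29 in non-wounded samples (53.5% of all probe sets), 24 at 30 min (56.9%) and 23 at 2 h (49.7%). Values are therefore given for both kinds of sample. Of the markers, 6 of 16 for keratinocytes, 5 of 11 for Langerhans cells and 7 of 16 for T cells were measured, and their levels give no share of each cell type. Over these markers the non-wounded means ran from 7.24 (Notch3) to 12.08 (Lgals7), from 3.44 (Ly75) to 10.78 (Cd74) and from 2.38 (Klrk1) to 5.91 (Xcl1). The mean of the 7 measured of 16 T cell markers was 3.97 to 4.30 in non-wounded and 4.08 to 4.47 in 2 h samples.

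Il6 and Ifnlr1 were the members whose 2 h and non-wounded samples did not overlap, in opposite directions, and Ifnb1 is shown beside them because its upstream region holds the same NF-kB motif as that of Il6. Each sequence is the 250 bases before the RefSeq start of the gene, 5′ to 3′ on the coding strand, in the build GRCm38.p6. Il6 lies at chr5:30012864-30013113, plus strand, Ifnb1 at chr4:88522795-88523044, minus strand and Ifnlr1 at chr4:135686207-135686456, plus strand. Capitals mark matches on either strand to the NF-kB motif (GGGA and TTCC with any 2 bases between them), the AP-1 motif TGANTCA or the C/EBP motif TTGCNNAA.
Il6: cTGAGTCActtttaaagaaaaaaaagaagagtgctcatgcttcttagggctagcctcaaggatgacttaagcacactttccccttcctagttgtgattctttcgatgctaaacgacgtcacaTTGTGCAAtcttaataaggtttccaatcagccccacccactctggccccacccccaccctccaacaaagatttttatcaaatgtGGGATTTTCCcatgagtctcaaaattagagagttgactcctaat
Ifnb1: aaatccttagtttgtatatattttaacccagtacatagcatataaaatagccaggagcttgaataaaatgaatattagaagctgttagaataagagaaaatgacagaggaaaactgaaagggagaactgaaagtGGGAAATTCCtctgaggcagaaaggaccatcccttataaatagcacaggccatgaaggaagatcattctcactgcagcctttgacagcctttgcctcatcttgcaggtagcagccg
Ifnlr1: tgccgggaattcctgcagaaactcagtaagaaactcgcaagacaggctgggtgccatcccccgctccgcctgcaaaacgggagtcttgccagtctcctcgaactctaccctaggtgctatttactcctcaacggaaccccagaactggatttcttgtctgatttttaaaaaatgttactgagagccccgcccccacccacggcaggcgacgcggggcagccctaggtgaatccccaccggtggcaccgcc
In the Il6 window the matches were TGAGTCA, with its first base 249 bases before the start, TTGTGCAA at 128 and GGGATTTTCC at 44, and no match overlapped another. The Ifnb1 window held GGGAAATTCC at 116, and the Ifnlr1 window held none of these letters. Upstream windows were found for 21 of the 28 genes (28 windows) and for 708 genes of the table (875 windows). The NF-kB motif was in 3 of the 28 windows (Il6, Ifnb1 and Il16), in 1.94% of the table's windows and in 1.21% of all 32851 windows. AP-1 was in 5 of 28 (Il6, Il11, Il16, Il17a and Il1rn), 6.86% and 6.75%, and C/EBP in 3 of 28 (Il6, Il4 and Il16), 10.6% and 9.56%. A match is a description of the letters and not a site of binding.

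The first comparison asked which of these cytokine genes differed 2 h after wounding. Il6 was higher at 2 h in every sample, and Ifnlr1 lower in every sample, but 0 of the 29 probe sets passed limma's test (adjusted p over 1246 probe sets, of which 0.241% passed). With the replicate number as a block 0 of 29 passed again, beside 17 probe sets or 1.36% of the table. At an unadjusted p under 0.05 there were 2 of 29 (4.65% of all probe sets), or 5 of 29 with the block (13.8%). No interleukin or interferon can therefore be said to have risen or fallen at 2 h in these fits. The 29 differences ran from -0.78 to 1.01 with a median of 0.11, beside 0.025 for all probe sets, and 20 of 29 were above 0 (54.5% of all). Without the 2 h sample numbered 1 the median was -0.053 with 11 of 29 above 0, and without the non-wounded sample numbered 4 it was -0.0039 with 14 of 29.

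**Figure D1:**
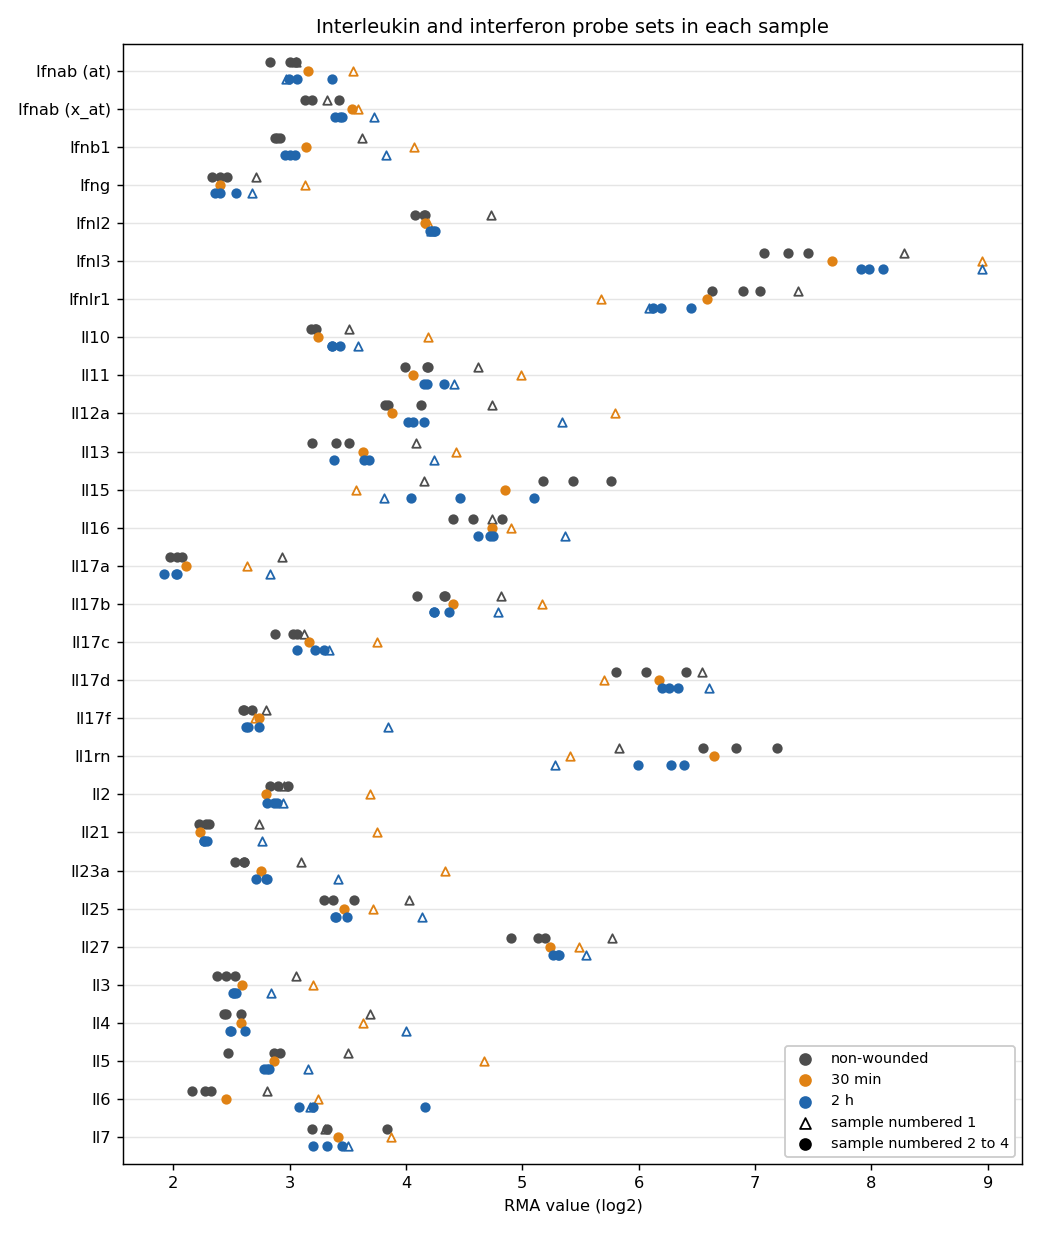
RMA value (log2, horizontal axis) of each of the 29 probe sets in the 4 non-wounded, 2 30 min and 4 2 h samples, with open triangles for samples numbered 1 and filled circles for samples numbered 2 to 4. For most rows the triangles lie to the right of the circles of the same colour, and Il6 and Ifnlr1 are the rows where the 2 h and non-wounded symbols do not overlap.

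Il6, the ligand of the IL-6 receptor and gp130 that drives acute inflammation, had the largest difference. In the order of their numbers 1 to 4, the non-wounded samples were at 2.80, 2.33, 2.16 and 2.27. The samples numbered 1 and 2 at 30 min were at 3.24 and 2.45. At 2 h the 4 samples were at 3.18, 3.20, 3.08 and 4.17. All 4 samples at 2 h lay above all 4 non-wounded samples (1 of 29 members did so, against 2.01% of all probe sets), 3 of them close together and 1 about 1 unit higher. The difference was 2.02-fold in RMA values (log2 1.01 ± 0.29 SE, 95% interval 0.36 to 1.67, limma adjusted p = 0.354, or 0.104 with the block). The samples numbered 2 to 4 gave 1.23 by themselves (adjusted p = 0.0812) and the pair numbered 1 gave 0.37. Each non-wounded Il6 value was below the lower quartile of its sample (2.91 to 3.28), and a filter on dim probe sets, which kept 18 of the 29, left Il6 out, so the fold starts from a level that may not be above background. In whole tissue, more cells that make a transcript and more transcript per cell cannot be told apart. The mean of the 6 measured of 12 neutrophil markers was 4.05 to 4.29 in non-wounded and 4.41 to 4.49 in 2 h samples. The Langerhans cell list ran from 5.79 to 6.12 and from 5.82 to 6.78, the fibroblast list (6 of 11) from 3.54 to 3.89 and from 3.85 to 4.18, and the endothelial list (4 of 11) from 3.40 to 3.66 and from 3.64 to 3.88. Other lists overlapped between the groups. The monocyte and macrophage list (7 of 12) ran from 4.05 to 4.11 and from 3.99 to 4.17. The mast cell list (1 of 6, Kit) ran from 3.27 to 4.08 and from 3.34 to 4.22. The part of any of these cells in the Il6 values was not tested. Il11, another ligand that signals through gp130, was at 4.24 ± 0.27 in non-wounded (SD, n = 4), 4.52 at 30 min and 4.27 ± 0.12 at 2 h (n = 4), a difference of 0.024 with a 95% interval of -0.48 to 0.53.

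Ifnlr1, the chain that gives the type III interferon receptor its specificity, was lower at 2 h. Non-wounded samples were at 7.37, 7.04, 6.89 and 6.63, the 30 min samples at 5.68 and 6.59, and the 2 h samples at 6.09, 6.45, 6.12 and 6.20. All wounded samples of both times lay below all 4 non-wounded samples. Among the 29, 1 was lower without overlap at 2 h (2.73% of all probe sets) and 1 at 30 min (5.14%), and both times it was Ifnlr1. At 2 h the difference was -0.77 ± 0.24 SE (95% interval -1.30 to -0.24, limma adjusted p = 0.452, or 0.137 with the block). By kind of sample it was -0.60 for those numbered 2 to 4 (adjusted p = 0.0875) and -1.28 for the pair numbered 1. Il10rb, the chain with which it pairs, picked for that after its value was seen, was at -0.64 ± 0.42 SE (limma adjusted p = 0.998).

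Ifnl3, a type III interferon that acts mainly on epithelial cells, was higher at 2 h in each kind of sample taken alone. Its non-wounded values were 8.28, 7.46, 7.28 and 7.07, its 30 min values 8.95 and 7.66, and its 2 h values 8.95, 7.91, 7.98 and 8.10. The groups overlapped only through the non-wounded sample numbered 1. Among the samples numbered 2 to 4 all 3 at 2 h lay above all 3 non-wounded ones. That was also so for Il6, Ifnb1, Ifnl2, Il10, Il23a and Il27. The share of all probe sets was not counted, so no result is drawn from this separation. The Ifnl3 difference was 1.64-fold (log2 0.71 ± 0.37 SE, 95% interval -0.12 to 1.54, limma adjusted p = 0.998, or 0.0651 with the block). Fitted on samples numbered 2 to 4 only, it was 0.73 and passed (adjusted p = 0.0284), as 1 of 29 members beside 3.05% of all probe sets, and between the samples numbered 1 it was 0.67. Ifnl2 is a related neighbour, with 247 of the 250 bases before its start the same as those of Ifnl3. These bases lie outside the transcript and cannot show whether probes are shared. Transcript and probe sequences were not compared, so the assignment of signal to Ifnl2 or Ifnl3 is uncertain. The Ifnl2 probe set was at 4.73, 4.08, 4.15 and 4.16 in non-wounded, 4.18 and 4.17 at 30 min and 4.21, 4.23, 4.21 and 4.25 at 2 h. Apart from the non-wounded sample numbered 1 its values stayed within a narrow band.

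In the other interferons the non-wounded and 2 h groups overlapped, as they did for Ifnl3. Ifnb1, a type I interferon, was at 3.62, 2.92, 2.89 and 2.88 in non-wounded and 3.83, 3.05, 2.96 and 3.00 at 2 h, a difference of 0.13 with a 95% interval of -0.52 to 0.78. Its NF-kB match is shown above beside that of Il6. Ifng, the type II interferon of T and NK cells, was at 2.71, 2.46, 2.41 and 2.33 in non-wounded samples, 3.13 and 2.40 at 30 min and 2.67, 2.40, 2.36 and 2.54 at 2 h. The 2 h difference was 0.017 ± 0.19 SE (limma adjusted p = 0.998), and the groups overlapped almost wholly. Ifnab, a type I interferon of the alpha class, had 2 probe sets. The one ending in _at was at 3.05, 3.00, 3.05 and 2.83 in non-wounded and 2.96, 3.07, 3.00 and 3.36 at 2 h (0.11 ± 0.16 SE). The one ending in _x_at, the suffix for probes that may cross-hybridise, was at 3.32, 3.43, 3.19 and 3.13 and then 3.72, 3.45, 3.39 and 3.43 (0.23 ± 0.15 SE). Both had a limma adjusted p of 0.998, and their 30 min values follow with that comparison.

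**Figure D2:**
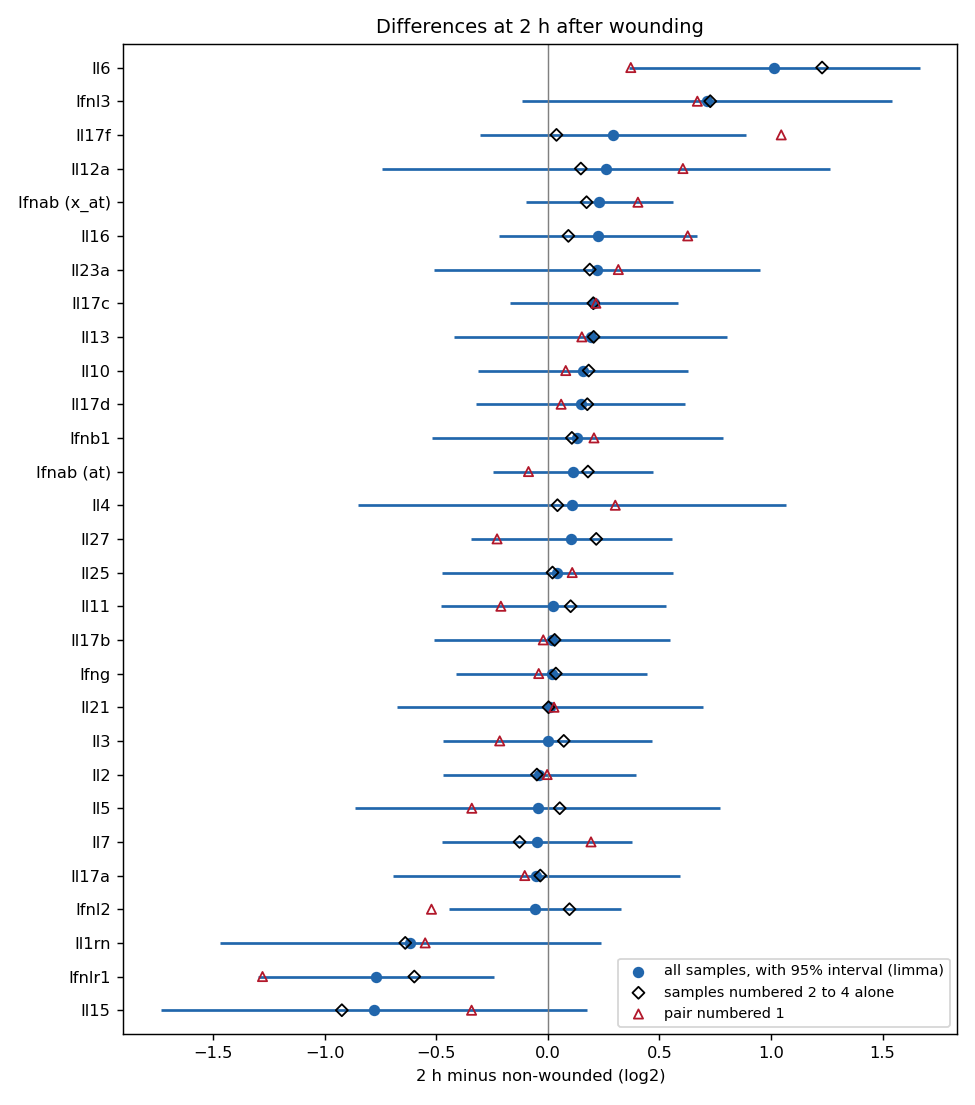
Difference between 2 h and non-wounded samples (log2, horizontal axis) for the 29 probe sets, sorted by size: blue points with 95% intervals are limma estimates from all samples, black diamonds the samples numbered 2 to 4 alone, red triangles the single pair numbered 1. The intervals of Il6 and Ifnlr1 leave out 0. All 3 symbols lie above 0 for 15 of the 29, Il6 and Ifnl3 among them. All 3 lie below 0 for 5, Il1rn, Ifnlr1 and Il15 among them.

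Il1rn, the secreted antagonist that blocks the IL-1 receptor, was measured at 5.83, 6.55, 6.83 and 7.19 in non-wounded samples, 5.41 and 6.65 at 30 min and 5.28, 6.39, 6.27 and 5.99 at 2 h. Each 2 h sample was below the non-wounded sample of the same number, while the groups overlapped. Equal numbers are not known to pair samples, here or for the genes below. How many of all probe sets agree in every number was not counted. The Il1rn difference was -0.62 ± 0.38 SE (95% interval -1.47 to 0.24, limma adjusted p = 0.998, or 0.17 with the block). The samples numbered 2 to 4 gave -0.64 by themselves and the pair numbered 1 gave -0.55. Without the 2 h sample numbered 1 the fit gave -0.38. Il1rn also belongs to the IL-1 family, of which Il1b was at 3.70 ± 0.25 in non-wounded and 4.96 ± 0.64 at 2 h (SD, n = 4 each, limma adjusted p = 0.354). Il1a, Il18 and Il33 of that family were instead lower at 2 h, by -0.41, -0.56 and -0.19 (limma adjusted p = 0.998 each).

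Of the ligands that signal through the common gamma chain and support lymphocytes, Il15 had the largest difference. Il15, a survival factor of T and NK cells, was at 4.16, 5.44, 5.76 and 5.18 in non-wounded samples, 3.57 and 4.85 at 30 min and 3.82, 5.10, 4.47 and 4.04 at 2 h. As with Il1rn, every 2 h sample was below the non-wounded sample of its number and the groups overlapped. The difference was -0.78 ± 0.43 SE (95% interval -1.73 to 0.18, limma adjusted p = 0.998, or 0.122 with the block). By kind of sample it was -0.92 for those numbered 2 to 4 and -0.34 for the pair numbered 1. The mean of the 6 measured of 16 keratinocyte markers was 8.33 to 9.10 in non-wounded and 7.12 to 8.83 in 2 h samples, and its part in the Il15 and Il1rn values was not tested. Il7, another T cell survival factor, was at 3.31, 3.20, 3.32 and 3.83 in non-wounded, 3.87 and 3.42 at 30 min and 3.50, 3.32, 3.45 and 3.20 at 2 h (2 h difference -0.047 ± 0.19 SE). Il2, the T cell growth factor, was at 2.95, 2.90, 2.83 and 2.98, then 3.69 and 2.79, then 2.95, 2.80, 2.87 and 2.90 (-0.038 ± 0.19 SE). Il21, made by helper T cells, was at 2.74, 2.28, 2.22 and 2.30 in non-wounded and 2.77, 2.29, 2.26 and 2.26 at 2 h (0.0093 ± 0.31 SE). These 3 genes had a limma adjusted p of 0.998 each at 2 h, and their 2 h values lay within or close to the non-wounded range. Il4, which steers type 2 responses, was at 3.69, 2.58, 2.44 and 2.46 and then 4.00, 2.49, 2.50 and 2.62, so that in each group the sample numbered 1 was more than 1 unit above the others.

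The remaining type 2 and haematopoietic cytokines differed by little at 2 h. Il5, which drives eosinophils, was at 3.50, 2.92, 2.86 and 2.47 in non-wounded and 3.16, 2.81, 2.82 and 2.78 at 2 h, a difference of -0.045 ± 0.36 SE (limma adjusted p = 0.998). Il3, a growth factor of mast cells and progenitors, was at 2.60 ± 0.31 and 2.60 ± 0.16 (SD, n = 4 each), Il13 at 3.55 ± 0.38 and 3.74 ± 0.36, and Il25 at 3.56 ± 0.33 and 3.60 ± 0.36. The differences of these 4 genes lay between -0.045 and 0.19.

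In the IL-12 family, whose members pair 2 chains, Il12a, Il23a and Il27 each encode 1 chain of a heterodimer. Il23a, whose product supports IL-17 producing T cells, was at 3.10, 2.61, 2.61 and 2.53 in non-wounded and 3.41, 2.71, 2.80 and 2.80 at 2 h. Each 2 h sample was higher than the non-wounded sample of its number, by 0.22 ± 0.33 SE on average (limma adjusted p = 0.998), or 0.060 without the 2 h sample numbered 1. Il12a was at 4.13 ± 0.43 and 4.39 ± 0.63 (SD, n = 4 each). Il27, whose product also signals through gp130, was at 5.77, 5.20, 5.14 and 4.90 in non-wounded, 5.48 and 5.24 at 30 min and 5.54, 5.31, 5.26 and 5.31 at 2 h (2 h difference 0.11 ± 0.20 SE, adjusted p = 0.998).

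The IL-17 family was represented by Il25, given above, and 5 genes named Il17. Il17a, the T cell cytokine that recruits neutrophils, was at 2.94, 2.07, 2.03 and 1.97 in non-wounded, 2.63 and 2.11 at 30 min and 2.83, 2.03, 1.92 and 2.03 at 2 h. The 2 h difference was -0.051 ± 0.29 SE (limma adjusted p = 0.998), and in each group the sample numbered 1 stood above the others. Il17f was at 2.67 ± 0.09 and 2.96 ± 0.59 (SD, n = 4 each), with the 2 h sample numbered 1 at 3.84 and the other 3 between 2.62 and 2.74. Il17c, an epithelial member of the family, was at 3.13, 3.07, 3.03 and 2.87 in non-wounded and 3.34, 3.22, 3.06 and 3.30 at 2 h (0.21 ± 0.17 SE). Each 2 h value was above that of its number, but the 2 h sample numbered 3 lay inside the non-wounded range. Il17b was at 4.81, 4.34, 4.09 and 4.33, then 5.17 and 4.40 at 30 min, then 4.79, 4.24, 4.37 and 4.24 at 2 h (0.018 ± 0.24 SE). Il17d was at 6.55, 6.40, 6.06 and 5.80 in non-wounded and 6.61, 6.34, 6.20 and 6.26 at 2 h (0.15 ± 0.21 SE, or 0.014 without the non-wounded sample numbered 4). The limma adjusted p of Il17b, Il17c and Il17d at 2 h was 0.998 each.

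Il10, an anti-inflammatory cytokine, was at 3.51, 3.22, 3.22 and 3.18 in non-wounded, 4.19 and 3.25 at 30 min and 3.59, 3.37, 3.37 and 3.44 at 2 h (2 h difference 0.16 ± 0.21 SE, limma adjusted p = 0.998). All 3 of its 2 h samples numbered 2 to 4 lay above the non-wounded samples of those numbers and below the non-wounded sample numbered 1. Il16, a chemoattractant of CD4 cells, was at 4.74, 4.82, 4.58 and 4.41, then 4.90 and 4.74, then 5.37, 4.75, 4.62 and 4.72 (0.23 ± 0.20 SE, adjusted p = 0.998), with the 2 h sample numbered 1 above the rest.

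At 2 h 15 of the 29 members were higher both in the pair numbered 1 and in the samples numbered 2 to 4 (32% of all probe sets), and 5 were lower in both (28.3%). With array weights 5 of 29 passed (10.4% of all probe sets), namely Ifnl3, Il6, Ifnlr1, Il1rn and Il15 (limma adjusted p = 0.00497, 0.00693, 0.009, 0.029 and 0.0345). The median difference of 0.11 became -0.040 with each sample scaled to 1 median and SD, where that of all probe sets was -0.064, so no direction is given for the set as a whole.

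**Figure D3:**
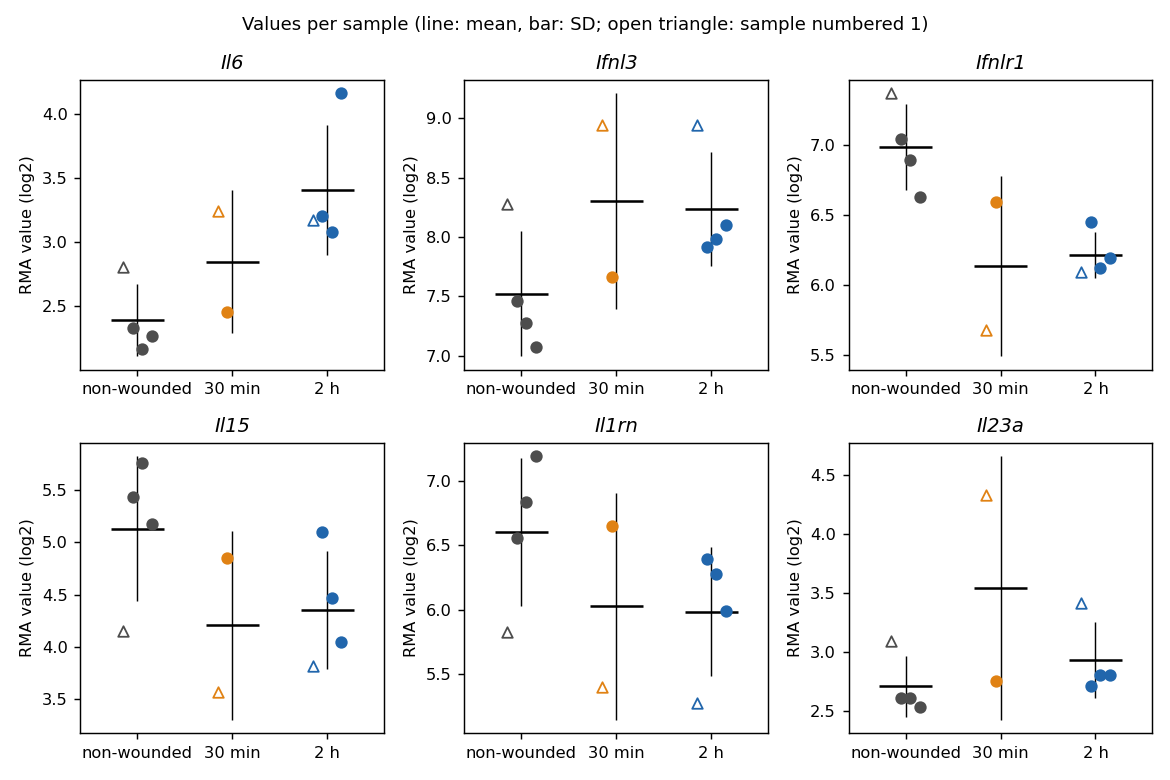
RMA value (log2, vertical axis) of Il6, Ifnl3, Ifnlr1, Il15, Il1rn and Il23a in each non-wounded, 30 min and 2 h sample, with the mean as a line, the SD as a bar and samples numbered 1 as open triangles; each panel has its own axis, which does not start at 0. For Il15 and Il1rn the triangle is the lowest symbol of every group, for Ifnl3 and Il23a the highest.

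The second comparison asked what differed 30 min after wounding, with 2 samples. At that time 24 of the 29 probe sets had a fitted difference above 0 (53.8% of all probe sets). The median of the 29 was 0.30, against 0.038 for the table. The sample numbered 1 is 1 of 2 at 30 min but 1 of 4 in non-wounded samples. The fit without the block therefore weighs the 2 kinds of sample unequally between the groups. With the block 19 of 29 were above 0, with a median of 0.21 against -0.0045 for the table. By limma 0 of 29 passed with or without the block, as did 0 of 1246. At an unadjusted p under 0.05 there was 1 of 29, Ifnlr1 (5.06% of all), or 4 of 29 with the block (10.9%). The median was 0.36 between the samples numbered 1 and 0.091 in those numbered 2 to 4. The 30 min and 2 h comparisons share the same non-wounded samples.

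For Il23a, Il5, Il21 and Il12a the 30 min difference came from 1 of the 2 samples. Il23a was at 4.33 in the 30 min sample numbered 1 and 2.75 in that numbered 2, Il5 at 4.67 and 2.86, Il21 at 3.75 and 2.23, and Il12a at 5.80 and 3.88. Against the non-wounded sample of the same number these were 1.24, 1.16, 1.02 and 1.06 for the samples numbered 1. Against the mean of the non-wounded samples numbered 2 to 4, the other 30 min sample differed by 0.17, 0.11, -0.041 and -0.051. The fit over all samples gave Il23a 0.83 ± 0.40 SE and Il5 0.83 ± 0.45 (limma adjusted p = 0.735 each). Without the 30 min sample numbered 2, limma called 5 of 29 (5.94% of all probe sets): Il5 at 1.73, Il23a at 1.62, Il21 at 1.37, Il10 at 0.91 and Ifnlr1 at -1.30. That arm then holds 1 sample, numbered 1, which is assumed to vary like the other groups, and 3 of the 4 non-wounded samples are of the other kind. Without the 30 min sample numbered 1 the median of the 29 was -0.014 and 0 passed.

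**Figure D4:**
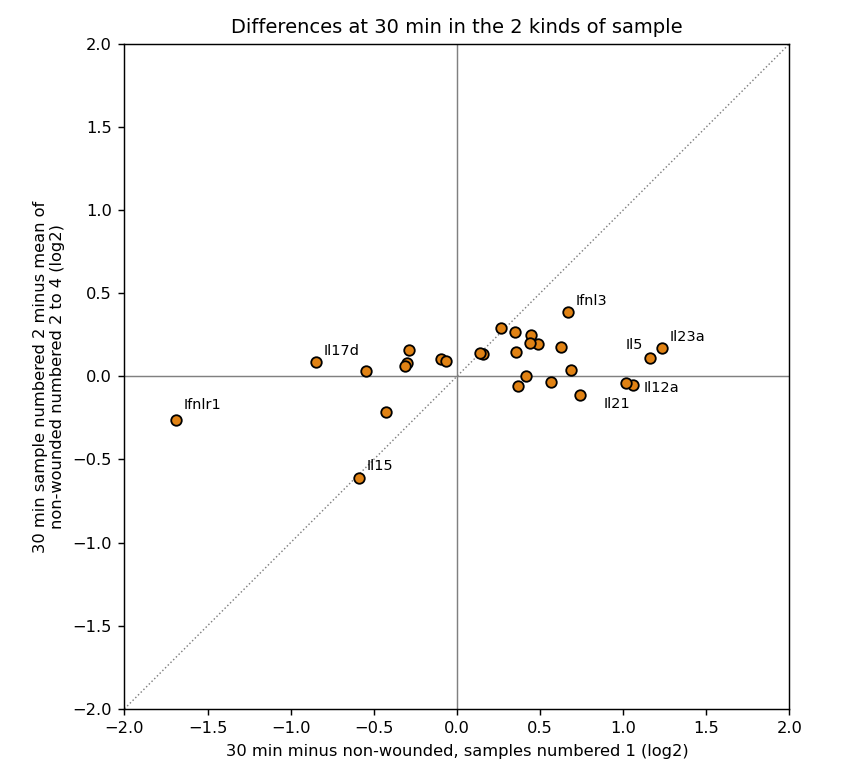
Difference between 30 min and non-wounded samples (log2) for the 29 probe sets, between the 2 samples numbered 1 on the horizontal axis and between the 30 min sample numbered 2 and the mean of the 3 non-wounded samples numbered 2 to 4 on the vertical axis; the dotted line marks equal differences. Il23a, Il5, Il12a and Il21 lie near 1 on the horizontal axis and near 0 on the vertical one, and Ifnlr1 and Il15 are below 0 on both.

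Other members had a difference of the same sign in both kinds of sample. Ifnlr1 was at -0.85 ± 0.29 SE (95% interval -1.50 to -0.20, limma adjusted p = 0.735), or -0.99 with the block. It was -1.69 between the samples numbered 1 and -0.26 for the sample numbered 2. Il15 was at -0.92 ± 0.52 SE (adjusted p = 0.735), or -0.81 with the block, with -0.59 and -0.61 by kind. Ifnl3 was at 0.78 ± 0.45 SE (adjusted p = 0.735), or 0.51 with the block, with 0.67 and 0.39. The fit without the block can lie outside both kinds, because the groups hold unequal shares of samples numbered 1. Il17c, at 3.75 and 3.17, lay above all 4 non-wounded samples, which ran from 2.87 to 3.13, and differed by 0.44 ± 0.21 SE (adjusted p = 0.735). Both Ifnab probe sets were also above the non-wounded range, at 3.54 and 3.16 for _at and 3.58 and 3.54 for _x_at, so that 3 of 29 were higher without overlap (2.49% of all probe sets). These values moved with the scaling: after quantile normalization Ifnl3 was at 1.26, Ifnlr1 at -0.40, Il17c at 0.22 and Ifnab (_at) at 0.15, while Il15 was at -0.90. In both kinds 14 of 29 were higher (28.2% of all) and 3 were lower (29.3%).

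Il6 was at 0.46 ± 0.36 SE at 30 min (limma adjusted p = 0.739), or 0.48 with the block. It was 0.44 between the samples numbered 1 and 0.20 for the sample numbered 2. The 30 min values of 3.24 and 2.45 thus stood on either side of the top of the non-wounded range, 2.80, while all 2 h samples were above it.

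The third comparison set 2 h against 30 min. By limma 0 of 29 members passed with or without the block, as did 0 of 1246 probe sets, and at an unadjusted p under 0.05 there were 0 of 29 (2.17% of all), or 1, Il17d, with the block (5.38%). In all, 21 of 29 were lower at 2 h (49.4% of all). The median of the 29 was -0.23, or -0.040 for samples numbered 2 to 4. The sample numbered 1 is 1 of 2 at 30 min and 1 of 4 at 2 h, so this fit also weighs the kinds unequally. With the block 13 of 29 were higher, beside 8 without it, and the median was -0.15, against 0.018 for the table. Il5 was at -0.87 ± 0.45 SE and Il21 at -0.60 ± 0.38 (adjusted p = 0.98 each), of which the pair numbered 1 gave -1.51 and -0.99 and the samples numbered 2 to 4 gave -0.060 and 0.044. Il6 was at 0.56 ± 0.36 SE (adjusted p = 0.98), with 1.03 in the samples numbered 2 to 4 and -0.068 in the pair numbered 1. Il17d, at 5.70 and 6.17 at 30 min and 6.61, 6.34, 6.20 and 6.26 at 2 h, was higher without overlap. Its difference was 0.41 ± 0.26 SE (limma adjusted p = 0.98, or 0.726 with the block), and 0.12 after quantile normalization. The pair numbered 1 gave 0.91 and the samples numbered 2 to 4 gave 0.092. Ifnl2 was the other member higher without overlap, by 0.049 (2 of 29, against 3.77% of all probe sets). Lower without overlap were 0 of 29 (1.69%).

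Genes on either side of these ligands were counted from lists. Of 34 measured receptor chains, Ifnlr1 left out, 0 rose and 0 fell at 2 h by limma with or without the block (0.241% and 1.36% of all probe sets passed), with a median of -0.038. In the samples numbered 2 to 4 alone 1 rose, Csf2rb, the chain shared by the IL-3 and IL-5 receptors (log2 1.00, adjusted p = 0.0284), beside 3.05% of all probe sets. Of the 7 measured IL-1 and IL-20 family ligands that the rule leaves out, 0 rose and 0 fell. Of 9 measured genes that NF-kB or STAT3 signalling is known to induce, 1 rose at 2 h, the chemokine gene Ccl20 (log2 4.09 ± 0.65 SE, limma adjusted p = 0.0412). With the block 5 rose, Ccl20, Cxcl2, Cxcl1, Icam1 and Junb, and the median of the 9 was 1.74. This list was chosen with earlier results of these data known, so its count and median are no independent evidence of its direction.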

How the data were processed

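The authors deposited 1 table of RMA values, on a log2 scale by their range, for 1246 probe sets and 12 samples; RMA is named in the submitters' processing notes, and its version, the array's name and any filter were not found in those sources. Biotin-labelled cRNA was made from total RNA, per the labels' protocols. Precision is limited by how few arrays there are. Probe sets were named through unversioned accessions of a RefSeq table (GRCm38.p6; 963 of 1246 matched 1 symbol), and upstream sequences came from RefSeq in that build.

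The members and gene lists were chosen with earlier results of these data known. Group means were compared with limma 3.58.1 (R 4.3.3; lmFit and eBayes) on all 12 samples without a block, with Benjamini-Hochberg adjustment over 1246 probe sets, a threshold of 0.05 and two-sided tests. Every member was accounted for. Values of every sample were given for 20 probe sets: any passing, the 8, 6 and 4 with the smallest p in the 3 comparisons, the 8 with the highest non-wounded means, and fixed names. Values of Ifnb1, Ifnl2, Il4, Il12a and Il17f by sample were added after they were seen. Whether the numbers in the titles pair samples was examined first: the deviations of same-numbered non-wounded and 2 h samples from their group means correlated at 0.796, 0.449, 0.651 and 0.297, all above 0.1, so blocked values are given. Without the samples numbered 1 the correlations were -0.15, 0.0727 and -0.319, none above 0.1. The first set has the samples numbered 1 in its group means, so it does not show that the numbers 2 to 4 pair samples. The fits were tested on simulated data. Alternatives were the fixed and random replicate block, samples numbered 2 to 4, the compared groups alone, quantile normalization, scaling, centring, a filter at the 25 percentile of mean level, a prior with trend and robust setting, weights per array, a single probe set for each gene and leaving out each sample. Figures used matplotlib 3.10.9 in Python 3.11.15.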

Additional observations from a re-analysis of the deposited data

Results flagged for a closer look

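In each group of 4 samples, the gap between the outermost sample and its neighbour was set against the whole range of the group and compared with Dixon's 95% limit for 4 samples, which chance passes in about 1 of 20 groups. Of 58 groups (29 probe sets, non-wounded and 2 h), 19 passed, 7 in non-wounded and 12 in 2 h samples, and in 18 of the 19 the sample standing apart was the highest and was numbered 1. Among non-wounded samples these were Ifnb1 (0.941), Ifnl2 (0.874), Il10 (0.880), Il17a (0.895), Il21 (0.834), Il23a (0.865) and Il4 (0.885). Among 2 h samples they were Ifnb1 (0.899), Il12a (0.895), Il16 (0.832), Il17a (0.881), Il17f (0.905), Il21 (0.946), Il23a (0.863), Il25 (0.862), Il3 (0.933), Il4 (0.914) and Il5 (0.888). The genes Ifnb1, Il17a, Il21, Il23a and Il4 passed in both groups. The one exception was Il6 at 2 h, where the sample numbered 4, at 4.17, stood above the other 3 (0.889). The share of all probe sets past the same limit was not counted, so the 19 are not read as a trait of these genes.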

How the results depend on the processing

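Of 534 recalculations of single members, 490 kept their direction and their side of the threshold, 35 reversed and 9 passed where the main test did not. Of the 15 of 30 single-member differences that were 0.3 or more in size, 11 moved by over 1.5 times with some sample left out and 4 with another scaling or centring. Differences at 2 h that reversed were all near 0: after quantile normalization Ifnab (_at) -0.0018, Ifng -0.0703, Il17b -0.0663 and Il21 -0.0562; after scaling to 1 median and SD -0.0462, -0.15, -0.0403 and -0.15 for the same genes; after centring Ifng -0.0673, Il17b -0.0663 and Il21 -0.0747; in the samples numbered 2 to 4 Il5 0.0534. For 2 h against 30 min Il21 was at 0.0440 in the samples numbered 2 to 4. With 1 sample left out, 2 h differences that reversed ranged from -0.0429 to 0.0956 for Ifng, -0.26 to 0.18 for Il17a, -0.11 to 0.16 for Il17b, -0.11 to 0.13 for Il21, -0.0112 to 0.28 for Il27, -0.20 to 0.14 for Il5 and -0.12 to 0.0936 for Il7. Those at 30 min ranged from -0.0747 to 1.73 for Il5, and those for 2 h against 30 min from -1.36 to 0.17 for Il21 and -1.77 to 0.0295 for Il5. Members passing at 2 h were 1 in the samples numbered 2 to 4, 5 with array weights and 0 in every other alternative run; at 30 min they were 0 to 5 with 1 sample left out. The block changed no call of a member. All probe sets passing at 2 h were 17 with the replicate block, 15 with a random block, 38 in the samples numbered 2 to 4, 7 after quantile normalization, 0 after centring, 8 with a trended robust prior, 130 with array weights and 0 to 11 with 1 sample left out (11 without 2 h replicate 1, 0 without any other), against 3. At 30 min 0 to 74 passed with 1 sample left out (74 without 30 min replicate 2, 0 without any other). For 2 h against 30 min 1 passed with a random block, 2 in the samples numbered 2 to 4, 2 after quantile normalization, 1 after scaling and 0 to 9 with 1 sample left out (9 without 2 h replicate 1, 3 without 30 min replicate 2, 0 without any other). The members' median ranged, with 1 sample left out, from -0.0529 to 0.20 at 2 h, from -0.0135 to 0.65 at 30 min and from -0.52 to 0.0936 for 2 h against 30 min; the cause of these shifts was not tested.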

Other observations

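The single samples at 0 h and 4 h, both numbered 1, belong to no comparison. At 0 h 15 of the 29 probe sets were above and 2 below the range of the 4 non-wounded samples, and at 4 h 17 were above and 2 below. The share of all probe sets outside that range was not counted. In the compared groups the sample numbered 1 was the highest for 49.7% to 56.9% of all probe sets. No result is therefore drawn from these counts. None of the 29 was 1 or more outside the non-wounded range, and the genes named next were chosen after their values were seen. At 4 h Ifnlr1 was at 5.74 (non-wounded 6.63 to 7.37) and Il1rn at 4.99 (5.83 to 7.19). Ifnl3 was at 9.09 at 4 h (non-wounded 7.07 to 8.28), Il11 at 5.50 (3.99 to 4.62), Il17c at 4.08 (2.87 to 3.13) and Ifng at 3.41 (2.33 to 2.71). Against the non-wounded sample numbered 1 alone, these 4 h differences were -1.63 for Ifnlr1, -0.84 for Il1rn, 0.82 for Ifnl3, 0.88 for Il11, 0.95 for Il17c and 0.70 for Ifng, with no replicate.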
